A study of Mus musculus with 9 samples.

Results

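The genes described here are 56 genes of cell proliferation and DNA replication, taken by symbol from a list. The list was chosen with earlier results of these data known. All 56 had a probe set of their own among 18194 genes measured. They were read on 9 Affymetrix mouse arrays in 5 classes: 2 proliferation markers, 9 G1 and S phase cyclins and cyclin-dependent kinases (CDKs), 6 cell cycle transcription factors, 23 replication genes and 16 mitosis genes. The arrays hold 3 kinds of mouse mammary cells, with 3 samples of each kind named by a replica letter, A, B or C. LD cells are luminal differentiated cells sorted from dissected glands as lineage-negative, EpCAM-high, CD49f-low and CD61-negative, and were profiled without culture. Organoids from MaSCs (MaSC organoids) grew from the mammary stem cell-enriched fraction. Organoids from yMaSCs (yMaSC organoids) grew from LD cells that had received a lentiviral FUW-tetO-YAP vector and the rtTA activator, and that were treated with doxycycline for 7 days. YAP was wild-type unless the study said otherwise, and doxycycline was absent while the organoids were kept. Both kinds of organoid were passaged every 2 weeks in pure Matrigel, in Advanced DMEM/F12 with EGF, bFGF, heparin, noggin and R-Spondin1. Donor mice were virgin C57BL/6J mice 8 to 12 weeks old unless otherwise specified. Any comparison with LD cells is therefore also one between cultured and uncultured cells, and these cannot be told apart. The sources used here give neither what samples of one letter share nor whether a sample pooled several mice.

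Dividing cells switch these genes on in order. D-type cyclins with Cdk4 and Cdk6 inactivate the retinoblastoma proteins, E2F factors then induce the replication genes, and MYBL2 and FOXM1 later act on the mitosis genes. Before S phase, ORC, CDC6 and CDT1 load the MCM2-7 helicase onto origins. CDC45 and the GINS complex activate it, and PCNA, its loader RFC and the DNA polymerases copy the strands. Cyclin B with CDK1 drives mitosis, in which Aurora kinases, PLK1, kinesins and the spindle checkpoint act. In bulk samples such as these, fewer dividing cells and less RNA per dividing cell cannot be told apart.

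Levels are log2 intensities that the authors computed by RMA, which corrects background, evens out the distributions of the arrays and condenses each probe set to 1 value. A difference of 1 is therefore a 2-fold difference. Levels of different genes are not compared, since probes differ in brightness. The lower quartile of all genes was between 3.47 and 3.59 on the arrays and the upper between 7.39 and 7.59. Tyms, the thymidylate synthase gene, was below 3.59 on all 9 arrays, so that its values carry little signal. E2f7 was below it on 5 arrays, Mybl2 and Aurkb on 4, Cdc6 and Bub1 on 3 and Kif20a on 2, and such values lie near the floor of the arrays. A gene passed where a limma model fitted to all genes gave a Benjamini-Hochberg adjusted p under 0.05.

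The proliferation markers separated the arrays by replica letter within the organoids. Mki67 encodes Ki-67, a protein of the chromosome surface present in cycling cells. Its level was 8.82, 6.09 and 8.36 in LD cells A, B and C, 5.28, 4.92 and 8.37 in organoids A, B and C from MaSCs, and 5.39, 4.88 and 8.30 in those from yMaSCs. Top2a, which encodes the topoisomerase that untangles replicated DNA, measured 8.71, 6.36 and 7.97 in LD cells, 5.42, 4.86 and 7.99 in MaSC organoids and 5.63, 5.19 and 7.87 in yMaSC organoids. For both genes the organoids C were near LD cells A and C, while organoids A and B were below every LD array, LD cells B included. Within organoids, Mki67 was higher in C than in A by 3.0 log2 (SE 0.10, 8.0-fold, limma adjusted p = 0.00144) and than in B by 3.44 (SE 0.10, 10.8-fold, 7.70e-04). For Top2a these differences were 2.41 (SE 0.13, adjusted p = 0.00397) and 2.90 (SE 0.13, 0.00255). These SEs rest on the disagreement between the 2 kinds of organoid, with 1 array of each kind per letter. In a fit of all probe sets only 1 of the 3 for Top2a passed, and the lowest differences were 0.11 and 0.20. Between organoids and LD cells neither gene passed. The differences for Mki67 were -1.57 log2 in both kinds of organoid (95% interval -4.27 to 1.14).

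**Figure D1:**
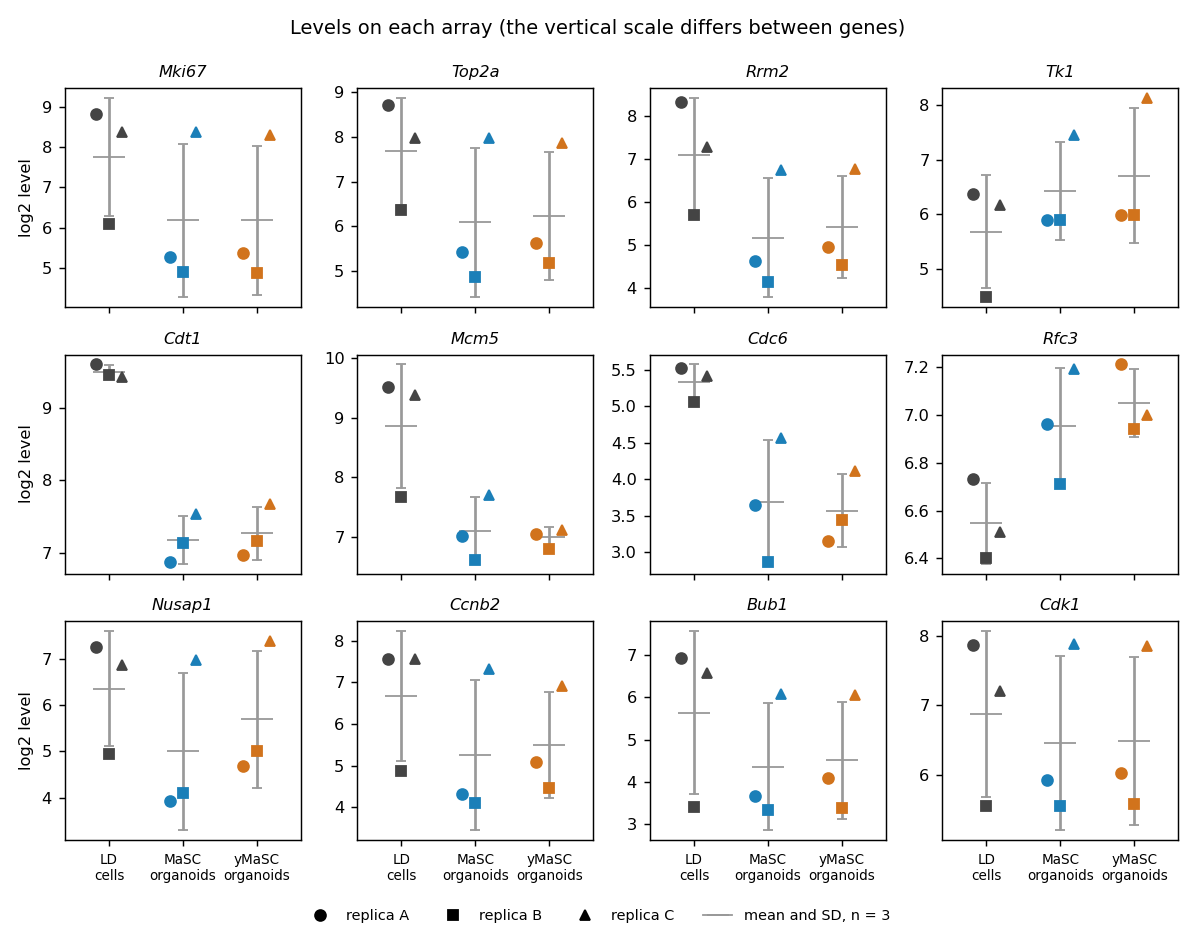
Log2 level (vertical axis, scaled to each gene) of 12 genes on each array, by group, with the replica letter as the symbol and the mean and SD of 3 arrays in grey. In Mki67, Top2a, Rrm2 and the 4 mitosis genes of the bottom row the triangles of organoids C lie above the organoids A and B, whereas all organoid values of Cdt1 and Cdc6 lie below those of LD cells.

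The start regions of 5 genes that the results below turn on are shown for the motifs they hold. Mki67, Top2a, Cdk1 and Ccnb2 rose in organoids C, and Mcm5 was lower in both kinds of organoid than in LD cells. Each sequence is the 200 bases before the gene's first listed start in RefSeq (GRCm38.p6), 5′ to 3′ on the gene's own strand: Mki67 at chr7:135716380-135716579, Top2a at chr11:99024190-99024389, Cdk1 at chr10:69352913-69353112 and Ccnb2 at chr9:70421555-70421754 on the minus strand, and Mcm5 at chr8:75109309-75109508 on the plus strand. Capitals mark CCAAT (bound by NF-Y), TTTGAA (the core of the CHR element of mitosis genes), TTTCGCGC and TTTGGCGC (both E2F sites), on either strand, where the reverse of CCAAT reads ATTGG and that of TTTGAA reads TTCAAA.
Mki67: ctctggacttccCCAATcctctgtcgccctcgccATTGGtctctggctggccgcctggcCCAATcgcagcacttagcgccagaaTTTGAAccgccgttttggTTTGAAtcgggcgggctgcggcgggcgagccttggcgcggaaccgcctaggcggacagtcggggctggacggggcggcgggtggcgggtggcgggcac
Top2a: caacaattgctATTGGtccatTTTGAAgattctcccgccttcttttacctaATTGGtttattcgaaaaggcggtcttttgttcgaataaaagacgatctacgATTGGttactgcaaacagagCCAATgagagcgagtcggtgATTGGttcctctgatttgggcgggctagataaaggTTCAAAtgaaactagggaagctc
Cdk1: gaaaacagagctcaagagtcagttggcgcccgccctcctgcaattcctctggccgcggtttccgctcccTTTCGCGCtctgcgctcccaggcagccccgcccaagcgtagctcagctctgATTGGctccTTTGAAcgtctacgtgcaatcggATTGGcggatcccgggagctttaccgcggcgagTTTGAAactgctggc
Ccnb2: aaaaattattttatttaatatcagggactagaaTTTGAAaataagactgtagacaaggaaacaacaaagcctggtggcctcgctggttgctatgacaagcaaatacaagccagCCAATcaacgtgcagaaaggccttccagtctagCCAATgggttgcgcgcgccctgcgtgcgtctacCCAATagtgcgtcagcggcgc
Mcm5: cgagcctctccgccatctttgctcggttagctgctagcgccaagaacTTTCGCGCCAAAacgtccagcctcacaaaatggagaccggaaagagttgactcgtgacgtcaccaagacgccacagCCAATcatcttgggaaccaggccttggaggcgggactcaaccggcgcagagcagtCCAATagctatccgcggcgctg
In Mcm5 the first capitals are TTTCGCGC and the reverse of TTTGGCGC, which share letters.

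Windows from 250 bases before to 50 after the start were found for 43 of the 56 genes. They were not found for Ccna2, Ccnd1, Ccnd2, Ccne2, Foxm1, Gmnn, Mcm4, Gins1, Gins2, Pole, Aurkb, Kif20a and Tpx2. TTTGAA was in 9 of 13 mitosis genes (69.2%), 2 of 18 replication genes (11.1%) and 13.4% of 14369 genes of the array with a window. An E2F site of either form was in 7 of 18 replication genes (38.9%), 1 of 13 mitosis genes (7.69%) and 1.29% of the array's genes. CCAAT was in 11 of 13 mitosis genes (84.6%), 13 of 18 replication genes (72.2%) and 38.2% of the array's genes. Over all 27025 genes with a window the shares were 18.1% for TTTGAA, 0.833% for an E2F site and 37.9% for CCAAT. Of the mitosis genes with a window, Nusap1 and Birc5 had none of the motifs. Among the replication genes with a window, Cdc6, Rfc4, Tyms and Tk1 had none. A match is a description of the letters and not evidence of binding.

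Compared with LD cells, the genes called lower in both kinds of organoid included Cdc6, Cdt1, Mcm3, Mcm5, Mcm6, Mcm10 and Pcna, while Ccnd3 was higher in both. In organoids from MaSCs, 9 of the 56 genes were lower and 1 was higher, where 15.2% of all genes were lower and 22.1% higher. In organoids from yMaSCs, 13 were lower and 2 higher, where 14.3% of all genes were lower and 21.6% higher. The median log2 difference of the 56 genes was -0.57 and -0.62, and that of all genes -0.02 and -0.01. Both comparisons use the same LD arrays. The 9 lower genes were Cdc6, Cdt1, Mcm3, Mcm5, Mcm6, Mcm10, Pcna, E2f2 and Mybl2. In organoids from yMaSCs, Cdc45, Mcm2, Pola1, E2f8 and Kif23 were also lower and Mybl2 was at -0.72 (adjusted p = 0.0638). The 9 of 56 genes lower in MaSC organoids were a share near the 15.2% of all genes. LD cells B held the lowest LD value in 51 of 56 genes, against 37.4% of all genes, and lay below LD cells A and C by over 1 in 22, against 1.59%. Without LD cells B, 21 genes were lower in each kind of organoid, beside 15.1% of all genes in MaSC organoids and 14.6% in yMaSC organoids.

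Single arrays moved these counts. Leaving out LD cells A or C left 4 genes lower in MaSC organoids and 6 in yMaSC organoids. Of all genes 14.5% and 13.3% were then lower in the first, and 13.6% and 12.6% in the second. Leaving out organoids A, B or C from MaSCs gave 5, 4 and 16 for the first, and leaving out organoids A or B from yMaSCs gave 7 and 7 for the second. The shares of all genes were 11.1%, 11.4% and 13.3% for the first, and 11.3% and 10.8% for the second. Without both organoids C the counts were 26 and 20, beside 14.1% and 13.5% of all genes. With a limit of at least 2-fold they were 4 and 8, and the share of all genes at that limit was not counted. Cdt1, Mcm10 and Pcna passed in both comparisons under every alternative run on them besides the 2-fold limit.

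**Figure D2:**
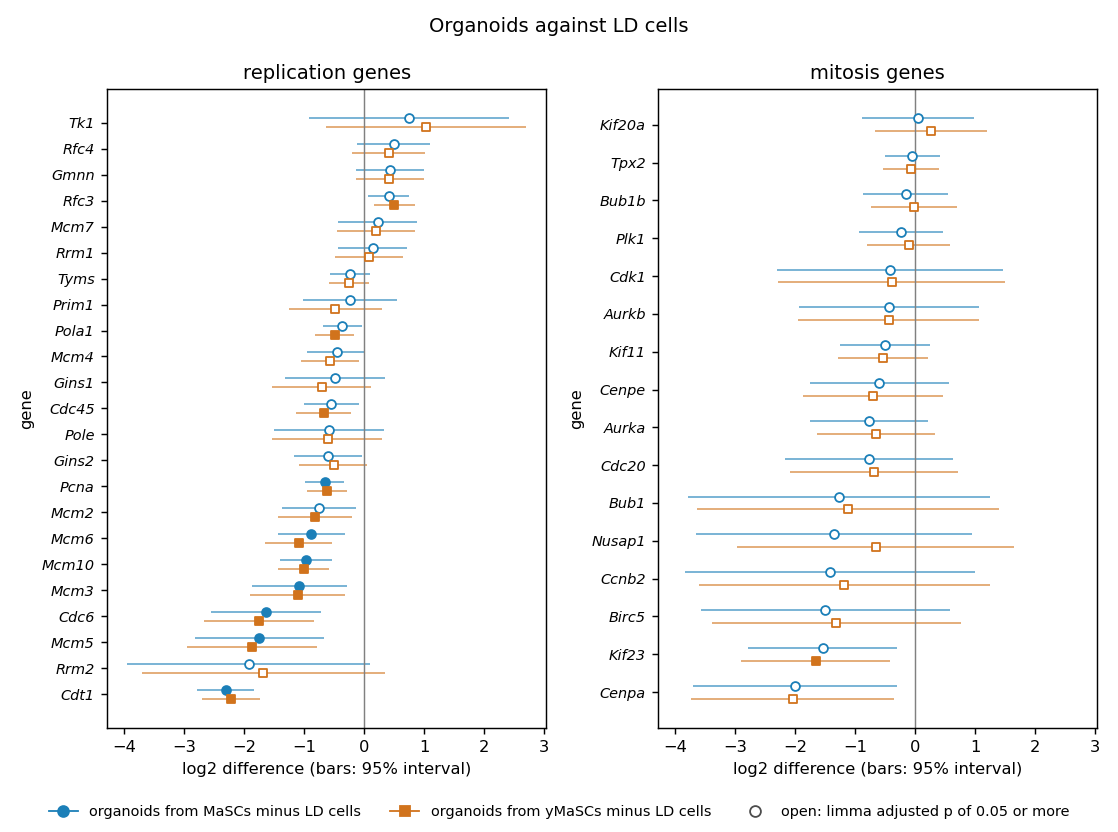
Log2 difference from LD cells (horizontal axis, with 95% intervals) of 23 replication and 16 mitosis genes in organoids from MaSCs (circles) and yMaSCs (squares), which share the LD arrays. Filled symbols passed at an adjusted p under 0.05: 7 and 11 replication genes, and 0 and 1 mitosis genes. Of all genes 15.2% were lower and 22.1% higher in organoids from MaSCs, and 14.3% and 21.6% in those from yMaSCs.

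Between the organoids, none of the 56 genes differed by the limma fit. Of all genes 0 passed (0%), 104 had an unadjusted p under 0.05, and no member was among these. The median difference of organoids from yMaSCs from those from MaSCs was 0.00, and in 31 of 56 genes the 95% interval lay within 1 log2. The letters were taken to pair the organoids across the 2 kinds of origin, and with the letter as a block in the organoid arrays the interval lay within 1 log2 in 56 of 56. For Mki67 it was then -0.20 to 0.20 and for Tk1 -0.07 to 0.64. Nusap1, a spindle microtubule protein, had the largest difference at 0.70 (0.41 to 0.98, unadjusted p = 0.00133, limma adjusted p = 0.964). It was 4.68, 5.01 and 7.39 in organoids A, B and C from yMaSCs and 3.92, 4.11 and 6.96 in those from MaSCs. With the block 5 members had an unadjusted p under 0.05, among 596 of all genes, and 0 genes passed.

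Within the organoids, most mitosis genes were higher in the arrays of letter C. In a limma fit of the 6 organoid arrays with letter and origin, 24 of 56 genes were higher in C than in A and 0 lower, where 3.78% of all genes were higher and 2.88% lower. Against B, 27 were higher and 1 lower, where 3.52% were higher and 3.47% lower. Between B and A, 0 genes of all passed (0%), with 1784 of all genes and 14 of the 56 at an unadjusted p under 0.05. By the F test over the letters 25 of 56 passed, against 5.52% of all genes: 2 of 2 proliferation markers, 6 of 9 cyclins and CDKs, 0 of 6 transcription factors, 4 of 23 replication genes and 13 of 16 mitosis genes. Both organoids C lay above all 4 organoids A and B in 40 of 56 genes, against 17.1% of all genes. The letters are compared over 2 arrays each, 1 of each origin. Their SEs and p values measure only how far the 2 origins disagree on these differences, and not the spread between replicas. Without any 1 organoid array 0 of all genes passed, in a fit with fewer residual degrees of freedom, and with LD cells in the fit 0 genes of the 56 were higher in C than in A and 3 than in B.

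**Figure D3:**
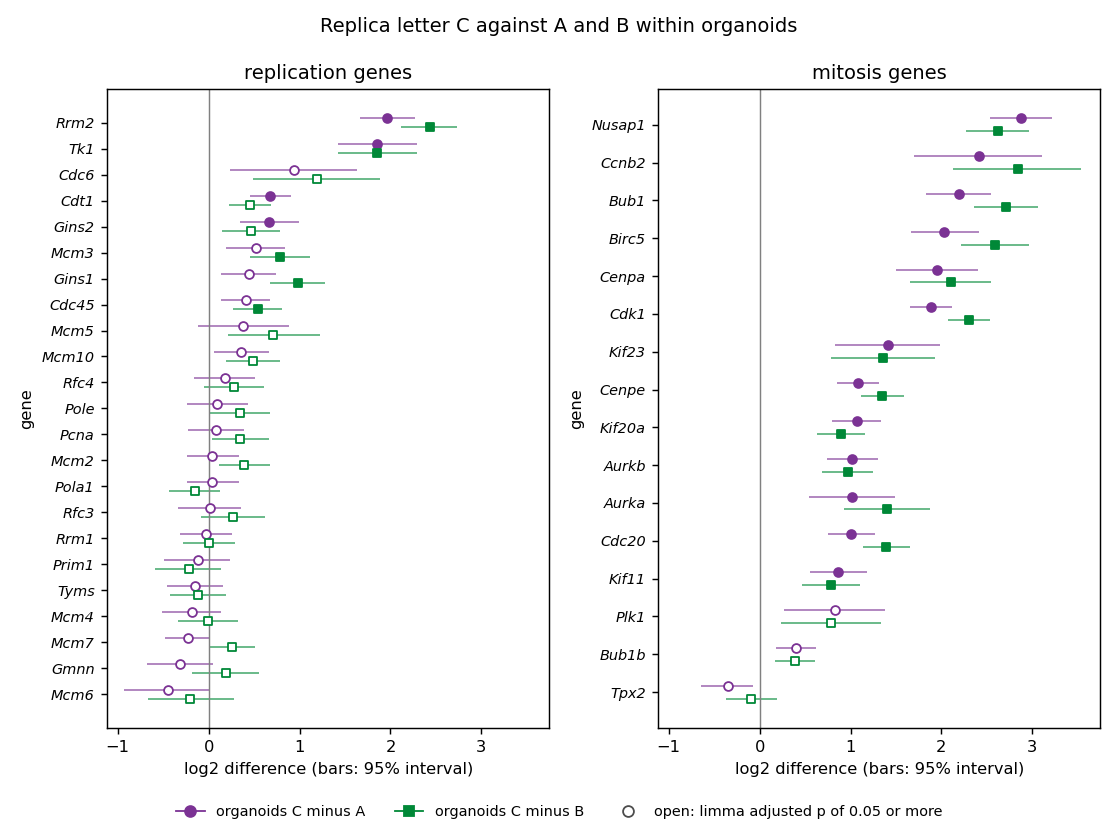
Log2 difference of organoids C from organoids A (circles) and B (squares), with 95% intervals, in 23 replication and 16 mitosis genes, each letter with 1 array of each origin. The 13 mitosis genes with filled symbols lie between 0.78 and 2.88, and most replication genes lie within 1 of 0, with Rrm2 and Tk1 apart.

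Among the cyclins and CDKs, 4 of 9 genes rose in organoids C against A (Ccna2, Ccnd1, Cdk4 and Cdk6) and 6 against B (the same and Ccnd2 and Ccne2). The shares of all genes that rose were 3.78% and 3.52%. Ccnd1 encodes cyclin D1, which couples growth signals to CDK4 and CDK6. It measured 10.11, 10.82 and 10.65 in LD cells, 9.17, 9.12 and 10.57 in MaSC organoids and 9.51, 9.30 and 10.73 in yMaSC organoids, with organoids A and B below every other array. Cdk6 measured 8.91, 7.69 and 8.99 in LD cells, 6.18, 7.14 and 8.31 in MaSC organoids and 6.53, 7.01 and 8.78 in yMaSC organoids, and rose in C by 2.19 log2 against A (SE 0.16, limma adjusted p = 0.00625) and 1.47 against B (SE 0.16, 0.013). Ccna2, the S phase and G2 cyclin A2, measured 7.60, 5.73 and 7.35 in LD cells, 5.37, 5.25 and 7.54 in MaSC organoids and 5.62, 5.35 and 7.05 in yMaSC organoids. In this gene LD cells A and C and both organoids C were the 4 high arrays. Ccnd2, which encodes cyclin D2, measured 6.52, 6.83 and 6.06 in LD cells, 5.52, 5.08 and 7.26 in MaSC organoids and 6.17, 5.04 and 6.84 in yMaSC organoids, with the organoids C highest among organoids.

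Cyclin D3 went the other way. Ccnd3 measured 7.87, 7.32 and 8.16 in LD cells, 8.49, 8.78 and 8.23 in MaSC organoids and 8.65, 8.77 and 8.33 in yMaSC organoids, so that every organoid array was above every LD array. It was higher than in LD cells by 0.72 log2 in organoids from MaSCs (SE 0.23, limma adjusted p = 0.0387) and by 0.80 in organoids from yMaSCs (SE 0.23, 0.0254). Within organoids it was the only member lower in C than in B, at -0.49 log2 (SE 0.10, adjusted p = 0.0464). Over the 3 probe sets of Ccnd3 the differences ran from -1.62 to -0.15 against A and from -1.79 to -0.08 against B. The rise against LD cells kept its call under 7 of 20 alternatives in MaSC organoids and 12 of 20 in yMaSC organoids, and was lost with the arrays brought to a common median. Ccne1 and Cdk2, the cyclin E1 and CDK2 genes of the G1 to S transition, and Ccne2 and Cdk4 did not pass against LD cells, at differences from -0.29 to 0.15.

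The transcription factor genes were lower in organoids than in LD cells in all 6 estimates of each comparison, and few passed. E2f8, an atypical E2F that represses E2F targets late in S phase, measured 6.77, 4.53 and 5.85 in LD cells, 4.0, 3.88 and 4.89 in MaSC organoids and 3.94, 4.16 and 4.43 in yMaSC organoids. LD cells B overlapped the organoids. Its difference was -1.54 log2 in organoids from yMaSCs (SE 0.51, limma adjusted p = 0.0429) and at -1.46 in those from MaSCs (0.0508). E2f2, an activating E2F, measured 6.01, 5.82 and 6.06 in LD cells, 5.55, 5.55 and 5.61 in MaSC organoids and 5.57, 5.32 and 5.61 in yMaSC organoids, without overlap, at differences of -0.39 (adjusted p = 0.0228) and -0.46 (0.0111). Mybl2, whose product B-MYB turns on mitosis genes, measured 4.39, 3.70 and 4.84 in LD cells, 3.38, 3.48 and 3.69 in MaSC organoids and 3.42, 3.50 and 3.86 in yMaSC organoids. Its organoid values were near the lower quartile, and LD cells B overlapped them. The difference was -0.79 in MaSC organoids (adjusted p = 0.0425). E2f7, the partner of E2f8, measured 4.68, 3.32 and 4.22 in LD cells, 3.20, 3.32 and 3.78 in MaSC organoids and 3.28, 3.24 and 3.84 in yMaSC organoids. It was the only factor gene higher in organoids C than in A (0.57, adjusted p = 0.0356) and than in B (0.53, 0.04). E2f1 measured 5.22, 4.92 and 5.03 in LD cells, 4.77, 4.71 and 4.95 in MaSC organoids and 4.79, 4.57 and 5.06 in yMaSC organoids. It did not pass in any comparison, and neither did Foxm1, which was between 5.85 and 6.32 on all arrays.

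Of the replication genes, 7 of 23 were lower in organoids from MaSCs than in LD cells and 0 higher, and 10 were lower and 1 higher in organoids from yMaSCs. Among all genes 15.2% were lower and 22.1% higher in the first comparison, and 14.3% and 21.6% in the second. Cdt1, whose product loads the MCM helicase before S phase, measured 9.60, 9.45 and 9.43 in LD cells, 6.88, 7.13 and 7.53 in MaSC organoids and 6.97, 7.17 and 7.68 in yMaSC organoids. The LD arrays lay close together and all organoids lay below them. The differences were -2.31 log2 (SE 0.21, 4.97-fold lower, limma adjusted p = 6.57e-05) and -2.22 (SE 0.21, 4.66-fold lower, 8.97e-05). Another probe set of Cdt1 gave -2.36 and -2.22, and the dimmest, with a mean of 2.68, gave 0.03 and 0.04. Cdc6, the other loader, measured 5.52, 5.06 and 5.41 in LD cells, 3.65, 2.87 and 4.56 in MaSC organoids and 3.16, 3.44 and 4.12 in yMaSC organoids, with differences of -1.64 (SE 0.40, adjusted p = 0.0119) and -1.76 (SE 0.40, 0.00875). No organoid array reached an LD array.

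The MCM helicase subunits had estimates of different size. Mcm5 measured 9.52, 7.66 and 9.39 in LD cells, 7.01, 6.6 and 7.70 in MaSC organoids and 7.05, 6.79 and 7.12 in yMaSC organoids, and LD cells B overlapped the organoids. Its differences were -1.75 log2 (SE 0.47, limma adjusted p = 0.0181) and -1.87 (SE 0.47, 0.0139). Mcm3 was at -1.08 and -1.11 and Mcm6 at -0.88 and -1.09, and both passed in both kinds of organoid. Mcm2 was at -0.75 (adjusted p = 0.0598) and -0.82 (0.0452), and Mcm4 at -0.46 (0.125) and -0.57 (0.0698). Mcm7 measured 9.83, 8.68 and 9.58 in LD cells and between 9.28 and 9.84 in organoids, at 0.23 and 0.20. Mcm10, which helps to activate the helicase, was at -0.97 (0.00376) and -1.01 (0.00313). All 3 LD values of Mcm10, 6.24, 5.83 and 6.17, were above the highest organoid value of 5.40. In a fit of all probe sets only 1 of the 3 for Mcm10 was called in each comparison. Their differences ran from -0.97 to -0.16 in MaSC organoids and from -1.01 to -0.07 in yMaSC organoids. Cdc45 passed in yMaSC organoids (-0.67, 0.0278), as did Pola1, the catalytic subunit of polymerase alpha (-0.49, 0.0247), whereas their estimates in MaSC organoids were -0.55 (0.0603) and -0.37 (0.0744). Gins1, Gins2, Pole (the polymerase epsilon catalytic subunit) and Prim1 (primase) had estimates from -0.70 to -0.24 and did not pass. Pcna, the sliding clamp of the polymerases, measured 11.77, 11.79 and 11.64 in LD cells and 10.85 to 11.32 in organoids, at -0.66 (SE 0.14, 0.0062) and -0.62 (SE 0.14, 0.00905). Over all 56 genes, of those called and read by several probe sets, every probe set shared the call in 0 of 8 in MaSC organoids and in 0 of 13 in yMaSC organoids, and none was called the opposite way.

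A few replication genes were not lower in organoids. Rfc3, a subunit of the clamp loader, measured 6.73, 6.4 and 6.51 in LD cells, 6.96, 6.71 and 7.19 in MaSC organoids and 7.21, 6.94 and 7.0 in yMaSC organoids. It was higher in organoids from yMaSCs by 0.50 log2 (SE 0.15, limma adjusted p = 0.0283), was at 0.41 in those from MaSCs (0.0623), and kept its call under 13 of 20 alternatives. The lowest organoid value, in MaSC organoids B, overlapped LD cells A. Rfc4, Gmnn (the CDT1 inhibitor geminin), Rrm1 and Mcm7 had estimates above 0 in both kinds of organoid and did not pass. Tk1, the S phase thymidine kinase, measured 6.37, 4.48 and 6.17 in LD cells, 5.90, 5.90 and 7.46 in MaSC organoids and 5.99, 5.99 and 8.14 in yMaSC organoids. Both organoids C were above every LD array, and the other organoids lay between LD cells B and the other LD arrays. Tk1 was higher in C than in A by 1.85 log2 (SE 0.17, adjusted p = 0.00994) and than in B by 1.85 (SE 0.17, 0.00864). Rrm2, the S phase subunit of ribonucleotide reductase, measured 8.32, 5.69 and 7.27 in LD cells, 4.63, 4.13 and 6.73 in MaSC organoids and 4.94, 4.52 and 6.77 in yMaSC organoids. It rose in C by 1.96 against A (SE 0.12, 0.00424) and 2.43 against B (SE 0.12, 0.00255). Rrm1, the large subunit, was at -0.03 and 0.00 in the same comparisons. Besides Rrm2 and Tk1, the replication genes that passed were Cdt1 and Gins2 against A, and Cdc45, Gins1 and Mcm3 against B, all higher in C.

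Where 3.78% and 3.52% of all genes rose, 13 of the 16 mitosis genes rose in organoids C against A and the same 13 against B. These are the spindle and kinetochore genes Nusap1, Cenpa, Cenpe, Kif11, Kif20a and Kif23, the kinase genes Cdk1, Bub1, Aurka and Aurkb, and Ccnb2, Cdc20 and Birc5. Nusap1 measured 7.25, 4.94 and 6.87 in LD cells, 3.92, 4.11 and 6.96 in MaSC organoids and 4.68, 5.01 and 7.39 in yMaSC organoids. It rose by 2.88 log2 against A (SE 0.14, 7.34-fold, limma adjusted p = 0.00286) and 2.62 against B (SE 0.14, 6.13-fold, 0.00255). The other probe set of Nusap1 gave 0.20 and 0.06 and did not pass. Ccnb2, the mitotic cyclin B2, measured 7.57, 4.87 and 7.57 in LD cells, 4.32, 4.10 and 7.32 in MaSC organoids and 5.10, 4.46 and 6.91 in yMaSC organoids. LD cells A and C and both organoids C formed the high arrays, and the other 5 arrays were at or below 5.10. Bub1, a kinase of the spindle checkpoint, measured 6.92, 3.42 and 6.57 in LD cells, 3.67, 3.33 and 6.09 in MaSC organoids and 4.10, 3.39 and 6.05 in yMaSC organoids. It rose in C by 2.19 (SE 0.14, 0.00468) and 2.71 (SE 0.14, 0.00255), while its other probe set gave 0.27 and 0.13 and did not pass. Cdk1, the kinase that triggers mitosis, measured 7.86, 5.55 and 7.21 in LD cells, 5.93, 5.55 and 7.88 in MaSC organoids and 6.03, 5.58 and 7.85 in yMaSC organoids. Here both organoids C were as high as the highest LD array. It rose by 1.89 (SE 0.09, 0.00307) and 2.30 (SE 0.09, 0.00178). Birc5, which encodes survivin of the chromosomal passenger complex, measured 7.52, 5.23 and 7.31 in LD cells, 4.54, 4.23 and 6.79 in MaSC organoids and 5.03, 4.23 and 6.85 in yMaSC organoids, and rose by 2.03 (SE 0.15, 0.00596) and 2.59 (SE 0.15, 0.003). In these genes LD cells B lay within the range of organoids A and B, other than in Birc5, where they lay just above it, and LD cells A and C lay far above that range.

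Bub1b, Plk1 and Tpx2 were the mitosis genes that did not pass. Bub1b was at 0.40 (limma adjusted p = 0.0616) and 0.39 (0.065), and Plk1 at 0.83 (0.0894) and 0.79 (0.101). Of the 3 probe sets of Bub1b 1 rose in each comparison, and the largest differences were 1.11 and 1.24. Tpx2, a spindle assembly factor, was at -0.35 and -0.09 in the probe set with the highest mean, 4.76. Another probe set of Tpx2, with a mean of 4.35, rose by 1.65 (0.0183) and 1.77 (0.0134), so that the result for this gene depends on the probe set. In a fit of all probe sets, 16 genes with several were called by the brightest against A and 18 against B. Every probe set shared the call in 6 of the 16 and in 7 of the 18. In that fit Gins2 lost its call against A, and Cdc45, Ccnd3 and E2f7 lost theirs against B. Against LD cells, 15.2% of all genes were lower and 22.1% higher in organoids from MaSCs, and 14.3% and 21.6% in those from yMaSCs. Of the mitosis genes 0 passed in organoids from MaSCs. Kif23, a kinesin of cytokinesis, was lower in organoids from yMaSCs (-1.66, SE 0.55, limma adjusted p = 0.0423) and at -1.54 in those from MaSCs (0.0542). Cenpa, the histone variant of centromeres, had a larger estimate, -2.01 (0.0642) and -2.04 (0.0622), and measured 7.95, 6.44 and 7.95 in LD cells, with both organoids C (6.85 and 6.69) above LD cells B. Without both organoids C, 8 mitosis genes were lower in organoids from MaSCs than in LD cells and 5 in those from yMaSCs, and both proliferation markers were lower in each. Of all genes 14.1% and 13.5% were then lower.

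**Figure D4:**
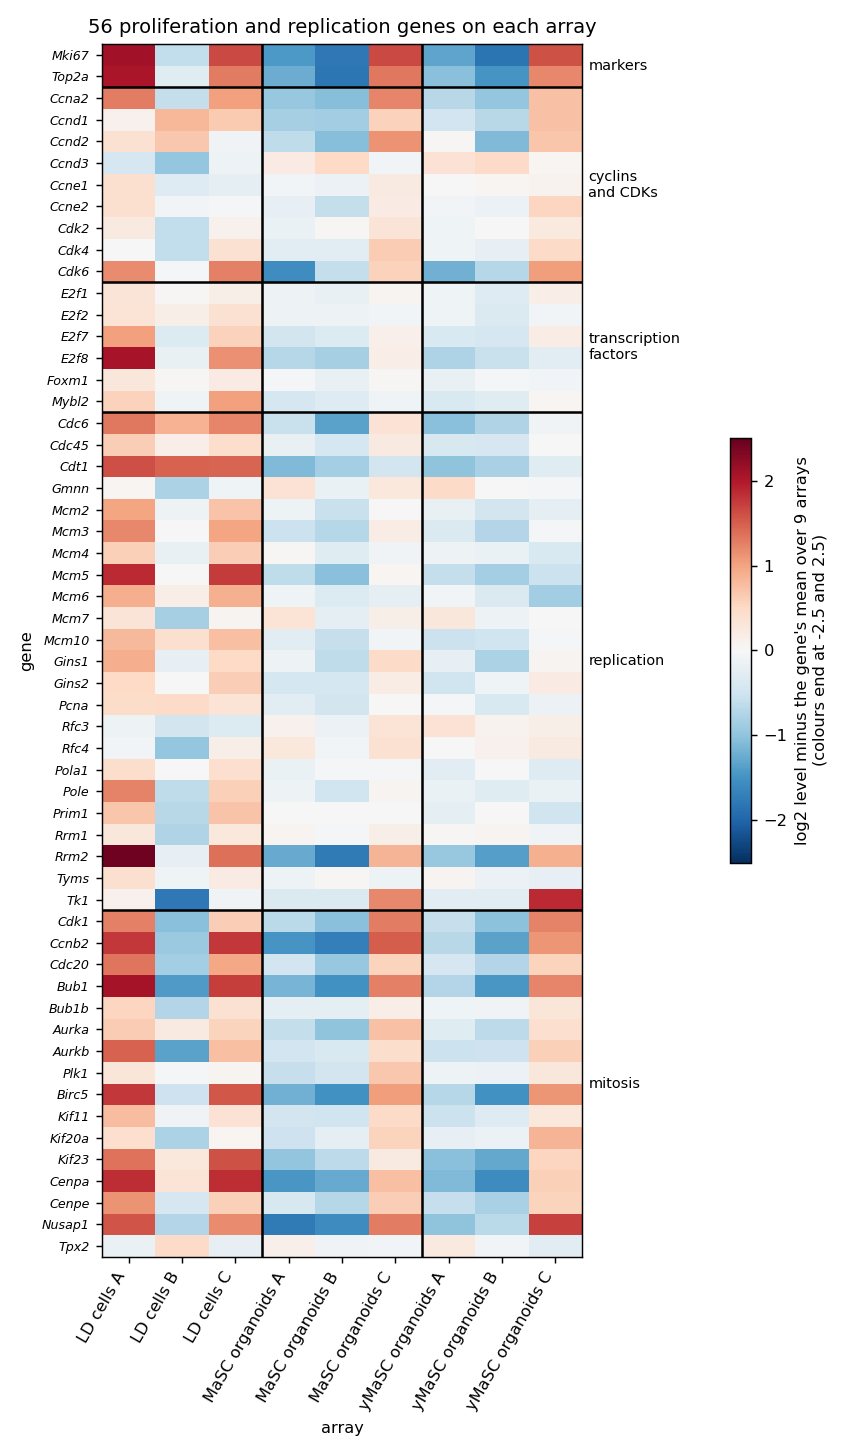
Log2 level of each of the 56 genes minus its mean over 9 arrays (colour, red above and blue below, with colours ending at -2.5 and 2.5), with genes in rows by class and arrays in columns. LD cells A and C and the organoids C are red over the mitosis genes, whereas the median of the replication genes is 0.62 and 0.60 in LD cells A and C and at most 0.15 on the other arrays.

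The replication and mitosis genes were set side by side, class by class. The median log2 difference from LD cells was -0.55 for replication and -0.68 for mitosis in organoids from MaSCs, and -0.61 and -0.65 in organoids from yMaSCs. Within organoids the medians were 0.09 and 1.08 for C against A, and 0.35 and 1.38 for C against B, beside 0.01 and 0.00 for all genes. Thus the classes lay 0.98 and 1.03 apart between letters, while the same differences from LD cells, mitosis minus replication, were -0.13 and -0.04. Leaving out 1 array moved the latter to between -0.44 and 0.02 in MaSC organoids and between -0.43 and 0.17 in yMaSC organoids, and so across 0, and the former to between 0.91 and 1.20 and between 0.91 and 1.13. The value of -0.44 came without LD cells B or without MaSC organoids C, and 0.02 without MaSC organoids B, while -0.43 came without yMaSC organoids C and 0.17 without yMaSC organoids B. On single arrays, the median of the mitosis genes minus that of the replication genes, each gene set against its mean, was 0.68, -0.50 and 0.08 in LD cells A, B and C, -0.45, -0.39 and 0.51 in organoids from MaSCs and -0.36, -0.41 and 0.66 in organoids from yMaSCs. The organoids C were thus above 0 in both origins, the organoids A and B below 0, and the LD cells on both sides. No test was made of these medians. LD cells B set against the mean of LD cells A and C gave a median of -1.40 in the mitosis genes, -2.24 in the proliferation markers, -0.79 in the replication genes and -0.02 over all genes.

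**Figure D5:**
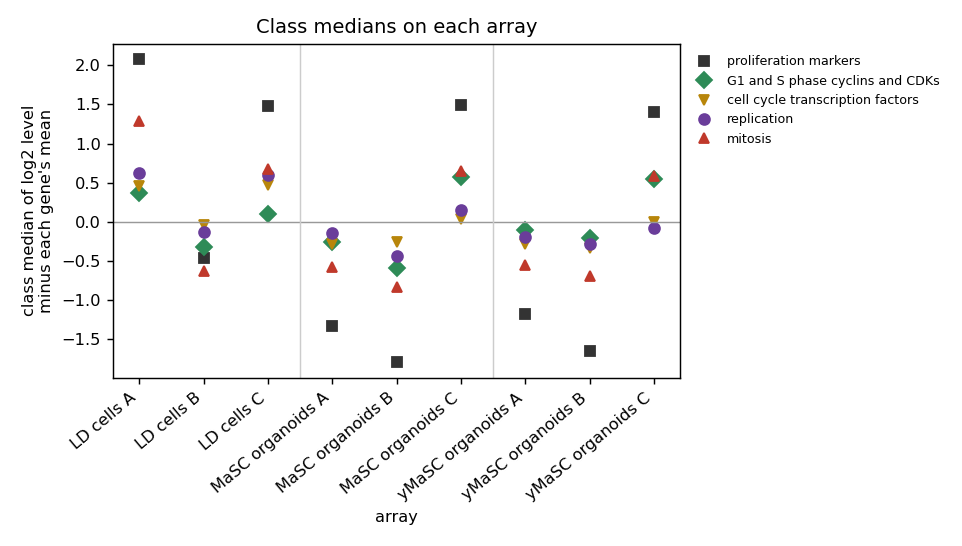
Median over each class of the log2 level minus each gene's mean over 9 arrays (vertical axis), for each array (horizontal axis). The mitosis median of the organoids C is 0.65 and 0.58, against -0.83 to -0.55 in organoids A and B, while the replication median spans -0.44 to 0.15 in all organoids.

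Other genes of the same processes were counted from lists. Between letters, 3.78% of all genes were higher and 2.88% lower in C than in A, and 3.52% and 3.47% than in B. Of 59 other mitosis genes measured, 25 were higher in organoids C than in A and 1 lower, and 31 were higher than in B and 1 lower, with medians of 0.67 and 0.69. Ube2c, Aspm and Cenpf rose by 2.67, 2.34 and 2.22 against A. Anln, a cytokinesis gene, rose by 1.53 against A, and Incenp was the lower gene in both (-0.88 and -0.94). Of 39 other replication genes, 3 and 6 were higher and 1 and 1 lower, with medians of -0.02 and 0.04. Against LD cells, 7 other replication genes were higher and 5 lower in organoids from MaSCs, and 8 higher and 6 lower in organoids from yMaSCs, where of all genes 22.1% and 15.2%, and 21.6% and 14.3%, were higher and lower. Uhrf1, which helps to copy DNA methylation, was at -1.56 (adjusted p = 0.0717) and -1.57 (0.0732). Orc3, an origin recognition subunit, was higher by 1.39 and 1.33 and Gins4 by 1.25 and 1.19, while Dbf4, the activator of the CDC7 kinase, was at -1.25 and -1.17. The median differences of this list from LD cells were 0.04 and 0.09, beside -0.55 and -0.61 for the 23 replication members.

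Genes of the retinoblastoma family and CDK inhibitors, which restrain the cell cycle, are read against the same shares of all genes, 22.1% and 21.6% higher and 15.2% and 14.3% lower. Rb1 measured 9.39, 9.40 and 9.86 in LD cells and 11.17 to 11.94 in organoids, at 2.25 log2 (limma adjusted p = 5.52e-05) and 1.98 (1.14e-04). Rbl2, which encodes the p130 protein of the DREAM repressor complex, was at 2.73 and 2.46, Rbl1, the p107 gene, at 0.96 and 0.98, and Tfdp2, an E2F partner, at 1.70 and 1.71. Of 13 genes of the RB family and the DREAM complex, 6 were higher and 1 lower in organoids from MaSCs, and 5 higher and 2 lower in those from yMaSCs. Of 7 CDK inhibitor genes 4 and 5 were higher, among them Cdkn2a (1.95 and 2.35) and Cdkn2c (2.11 and 2.0), and 1 was lower in each. The lower one was Cdkn1a, the p21 gene, at 11.35, 11.24 and 10.96 in LD cells and 8.48 to 9.56 in organoids (-2.33 and -1.84). Within organoids, Rbl2 was lower in C than in A (-0.95, limma adjusted p = 0.0401), Cdkn2a was lower in C than in A (-1.07, 0.0221) and Cdkn2c lower in C than in B (-0.83, 0.0325). Tfdp1, another E2F partner gene, was higher in C than in B (0.83, 0.0409). In C against A and C against B these lists held no other calls. Of all genes 3.78% were higher and 2.88% lower in C than in A, and 3.52% and 3.47% than in B.

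Markers of cell types differed along the same contrasts. Of all genes 15.2% were lower and 22.1% higher in MaSC organoids than in LD cells, and 14.3% and 21.6% in yMaSC organoids. Between letters 3.78% of all genes were higher in C than in A, and 3.52% than in B. Luminal markers were high in LD cells, as their label says, with Epcam between 13.60 and 13.70 and the basal factor gene Trp63 between 3.60 and 3.98, whereas Trp63 was 8.57 to 9.34 in organoids. Of 13 leukocyte markers 12 were lower in organoids from MaSCs than in LD cells and 11 in those from yMaSCs. Their summed level, the log2 of summed linear intensities, was 10.77, 10.78 and 10.06 in LD cells A, B and C and 7.95 to 8.66 in organoids, and none is at 0 on the RMA scale. Ptprc, the pan-leukocyte CD45 gene, was 8.94, 8.49 and 8.17 in LD cells, whose sort removed lineage-positive cells, and 2.64 to 2.99 in organoids. LD cells B had the highest summed level of 6 endothelial markers (8.67, against 7.13 and 7.28) and of 6 fibroblast markers (12.47, against 10.50 and 11.09), beside 6.92 to 7.06 and 9.55 to 11.23 in organoids. Against LD cells 0 endothelial markers passed, and 3 fibroblast markers were lower and 1 higher in each kind of organoid. The 7 basal markers summed to 13.26 and 12.47 in organoids C, 8.85 to 9.54 in LD cells and 11.35 to 11.63 in the other organoids, and 3 of the 7 were higher in C than in A and in B. The 8 luminal markers summed to 14.90 to 15.20 in organoids and 16.06 to 16.21 in LD cells, and 3 were higher in C than in A and 2 than in B. No leukocyte, endothelial or fibroblast marker passed between letters. The part of these cell types in the results above was not tested.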

How the data were processed

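Per the labels, Trizol-extracted RNA was labelled as biotinylated cRNA and hybridised to Affymetrix arrays. The deposited values are log2 intensities that the authors made with RMA, and the sources used here do not give its version. Of 45101 probe sets, 34958 carry 1 gene by the platform annotation, 932 several and 9211 none, and only the first were used. Each gene was read from its brightest probe set by mean over the 9 arrays, and 43 of the 56 genes have several. No filter on low values was applied. With R 4.3.3 and limma 3.58.1, the 3 groups were fitted over all 9 arrays, and letter with origin over the 6 organoid arrays, with empirical Bayes spread and Benjamini-Hochberg adjustment over 18194 genes. Both fits were tested on simulated data, in which values were drawn independently for each array. Apart from the differences put in, arrays of the same letter were not correlated there, unlike in these data.

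The 56 genes, the further lists and the tests were chosen with earlier results of these data known. All 56 are named, and values on every array are given for the proliferation markers, for up to 5 genes of each class with the largest difference, and for genes called against their class. Other genes described were chosen after their values were seen, and up to 4 of each further list have the largest difference. Labels do not say that samples came from separate animals, so p values between groups measure the spread between these samples. The SEs and p values between letters measure only how far the 2 kinds of organoid disagree on the differences between letters. They do not measure the spread between replicas, which for Mki67 was an SD of 1.9 in MaSC organoids and 1.85 in yMaSC organoids. Between the kinds of organoid, deviations of the same letter correlated at r = 0.607, 0.611 and 0.649, so the letters pair them. With LD cells on one side the same r ran from -0.0462 to 0.0453, and the letters do not pair those. The number of arrays limits the precision. Columns of other samples in the table numbered 0. Promoter windows came from RefSeq (GRCm38.p6), with the first listed start of a gene.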

Additional observations from a re-analysis of the deposited data

How the results depend on the processing

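Counts of the 56 genes are given as higher and lower, MaSC organoids against LD cells first, where 1 were higher and 9 lower, and yMaSC organoids second, where 2 were higher and 13 lower. With the letter as a fixed replicate block over all arrays 17 were lower in MaSC organoids, and with it as a random block 2 were higher and 14 lower. The shares of all genes were 16.1% lower, then 23.2% higher and 16.6% lower. With a common median of the arrays the counts were 0 and 21, then 0 and 23, and the median difference of all genes shifted by an amount of -0.25 and -0.26, to -0.27 in both. Of all genes 38.4% and 38.1% were lower under this setting, so these counts lay near the share of all genes. Quantile normalization gave 0 and 14, then 1 higher, beside 20.8% and 15.7%, then 20.5%, of all genes. The compared groups alone gave 0 higher in MaSC organoids, beside 21% of all genes. At least 2-fold gave 0 and 4, then 0 and 8, and 0 lower in C against B. The shares of all genes at this limit were not counted, so these counts cannot be set against them. The mean of all probe sets gave 1 higher in yMaSC organoids, 1 lower in C against A, and mitosis minus replication medians of 0.87 and 0.69 in C against A and B. Of all genes 21% were then higher in yMaSC organoids and 2.58% lower in C against A. Among genes above the median level 7 were lower in yMaSC organoids, beside 18.4% of all such genes. There 11 and 10 were higher in C against A and B, beside 7.27% and 6.19%. Of the 56 genes 10 passed the F test over letters, where fewer genes were tested and the share of all such genes is not given here. Without both organoids A the counts were 0 and 4, then 0 and 5, where 9.81% and 9.57% of all genes were lower. Without both organoids B they were 0 and 3, then 1 and 6, where 9.71% and 9.24% of all genes were lower. Without both organoids C, 26 and 20 were lower, beside 14.1% and 13.5% of all genes. With LD cells in the fit of letters, 0 were higher in C against A, 3 higher and 0 lower against B, and 0 passed the F test. Of all genes 0.726% were higher against A, and 0.918% higher and 0.61% lower against B. Leaving out 1 array gave 0 to 1 higher and 4 to 21 lower in MaSC organoids, 0 to 2 higher and 6 to 21 lower in yMaSC organoids, and 0 in every comparison of letters and in the F test. The mitosis minus replication median then ranged from 0.91 to 1.20 in C against A, 0.91 to 1.13 against B, -0.44 to 0.02 in MaSC organoids and -0.43 to 0.17 in yMaSC organoids. Of the fits without 1 array, those without LD cells B gave the highest counts of lower genes. Over these fits 11.1% to 15.4% of all genes were lower and 18.2% to 22.7% higher in MaSC organoids. In yMaSC organoids 10.8% to 14.6% were lower and 17.4% to 21.4% higher. The cause of these changes was not tested. Among genes called in the main fit, no difference reversed, and the signs of uncalled genes were not followed. The count of calls between the kinds of organoid was 0 under every alternative, the replicate block included. Low intensity limits Tyms, E2f7, Mybl2 and Aurkb most.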
